A study of Mus musculus with 2 samples.

Results

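The nuclear genes of the mitochondrial respiratory chain were compared between an eyeball RNA library from mice with oxygen-induced retinopathy (OIR) and a control eyeball library. The genes were chosen by symbol from the deposited gene table: Nduf genes of the a, b, c, s and v series for complex I, Sdha to Sdhd for complex II, Uqcr genes and Cyc1 for complex III, Cox4 to Cox8 genes for complex IV, Atp5 genes for complex V, and Cycs for cytochrome c. The rule found 86 genes of the 47644 in the table, namely 37 in complex I, 4 in complex II, 9 in complex III, 18 in complex IV, 17 in complex V and Cycs. A further 10 identifiers carry such a symbol only in the reference annotation, most of them pseudogenes, and were not members.

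Both libraries came from C57BL/6 mice and from total RNA of the eyeball. The OIR mice entered high oxygen at day 7, stayed there for 5 days, and were kept in ordinary air from then to day 17, when the eyes were collected. The control mice are labelled only as controls of the same strain. The labels give neither their age nor the number of animals or eyes in either library. There was 1 library per group, so no difference below has a replicate check and neither p-values nor standard errors are given. In whole eyes, fewer cells of a type and less RNA per cell cannot be told apart.

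The respiratory chain passes electrons from NADH through complex I, or from succinate through complex II, to ubiquinone, then through complex III and cytochrome c to complex IV, which reduces oxygen to water. Complexes I, III and IV pump protons, and complex V uses the proton gradient to make ATP. Most subunits are encoded in the nucleus and the rest in mitochondrial DNA. Photoreceptors, with inner segments packed with mitochondria, make the retina one of the most oxygen-consuming tissues. Several subunits exist as a common isoform and an alternative isoform that is used in muscle, lung or testis or that is induced in low oxygen.

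Levels are FPKM, reads adjusted for transcript length and library size. The difference of a gene is log2(FPKM + 1) in OIR minus control, so negative values mean lower in OIR. A gene counted as tested, a word used here for a level filter and not for a statistical test, had at least 1 FPKM in either library, which 15883 genes did. Reads assigned to genes numbered 15741235 in control and 20378793 in OIR. Beside a ratio of read shares, OIR over control, stands its exact conditional 95% interval (Clopper-Pearson), which covers counting error only. On the log2 scale that interval reached 0.11 to either side at the median member.

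The libraries differed in other RNA as well, and none of these differences could be separated from the disease model with 1 library a group. The lens marker list (9 of 10 tested, Lim2 without reads) took 10.9% of reads in control and 7.71% in OIR. The corneal epithelium list (6 of 6 tested) had a ratio of read shares of 3.33, the erythrocyte list (5 of 7 tested) of 2.78, and the mitochondrial ribosomal RNAs of 15.6. Rod photoreceptor markers (12 of 12 tested) took 3.08% of reads in control and 3.06% in OIR. With the reads of lens, erythrocyte, ribosomal RNA and mitochondrial genome genes left out of the totals, the ratio for all members was 0.740, against 0.803 with them.

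Nearly all nuclear chain genes were lower in OIR, by amounts that were small and alike. Of the 86 members, 84 were tested, and Cox7b2 and Cox8c had no reads in either library, where 3 reads, the upper limit that a count of 0 allows, would be 0.191 CPM in control and 0.147 CPM in OIR. The difference was below 0 for 79 members and above 0 for 5, while 35.1% of all tested genes were below 0. The median difference was -0.36 over the members and 0.11 over all tested genes. The members together took 0.923% of reads in control (145244 reads) and 0.741% in OIR (150928 reads), a ratio of 0.803 (95% interval 0.797 to 0.808).

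A difference of 0.32, a ratio of 5 to 4, was reached downwards by 48 members and upwards by Ndufa4l2 and Cox4i2, against 9.00% and 24.3% of all tested genes. No member was at least 2-fold lower, where 0.718% of tested genes were, and Ndufa4l2 was the only member at least 2-fold higher, where 3.07% were. The counting interval lay below 1 for 73 members and above 1 for 2, against 14.7% and 36.7% of tested genes, and it included 1 for 9 members. These counts depend on how the libraries are scaled. With TPM, which sets the length-adjusted values of each library to the same sum, 29 members were at least 0.32 lower and 2 higher. With the authors' own library factors 69 were lower and 1 higher, the median of all tested genes was -0.01, and the calls among all tested genes were 2490 lower and 2470 higher, against 1430 and 3854 with FPKM and 1042 and 5564 with TPM. Members below 0 numbered 75 with TPM and 81 with the authors' factors.

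**Figure D1:**
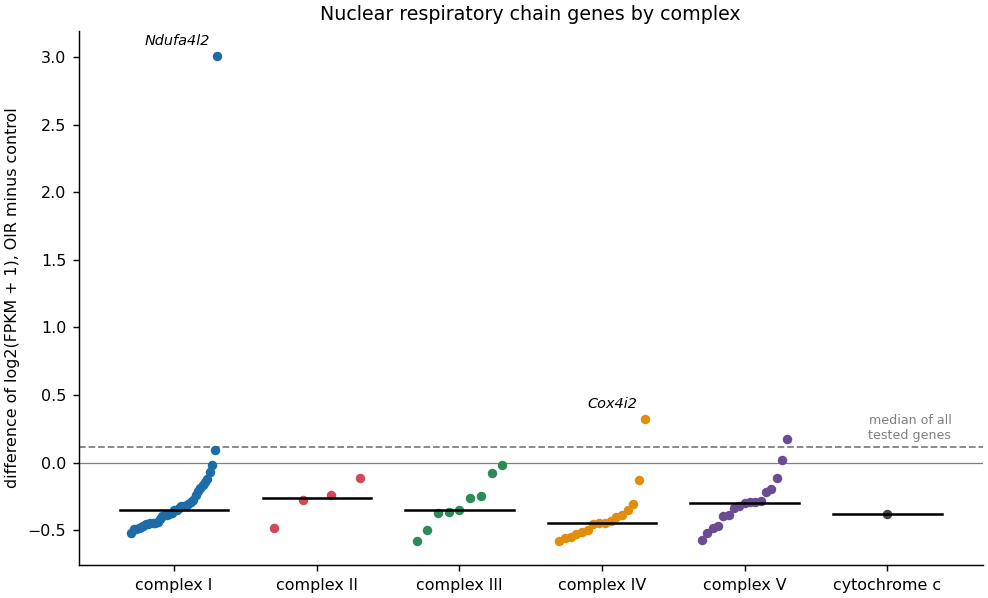
Difference of log2(FPKM + 1), OIR minus control, for each tested member (points), sorted within complexes I to V and cytochrome c, with the median of each complex (black bars), the median of all tested genes (dashed line) and 0 (grey line). The points lie between -0.58 and 0.17 except for Cox4i2 at 0.32 and Ndufa4l2 at 3.01.

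The complexes differed from each other mainly through complex IV. The ratio of read shares was 0.734 (0.721 to 0.746) for complex IV, 0.808 (0.789 to 0.827) for complex III, 0.809 (0.799 to 0.820) for complex I, 0.826 (0.816 to 0.837) for complex V and 0.868 (0.841 to 0.896) for complex II. The complex I sum holds Ndufa4 and Ndufa4l2 by name. Ndufa4l2, with 92 reads in control and 1099 in OIR, raises that ratio, so its order against complex III is not read here. With both genes counted in complex IV the median difference of complex I stayed at -0.35. Median differences ran from -0.45 in complex IV through -0.35 in complexes I and III and -0.30 in complex V to -0.26 in complex II, an order that changes when transcript length is taken into account, as given with the lengths. Set against the reads of all other members within each library, which needs no scaling between libraries, complex IV took 19.6% of chain reads in control and 17.9% in OIR, an odds ratio of 0.895 (Woolf 95% counting interval 0.879 to 0.912). The same odds ratio was 1.05 (1.03 to 1.06) for complex V and 1.09 (1.05 to 1.12) for complex II. For complexes I and III the interval included 1. No replicate shows whether such shifts exceed the spread between mice. Summed reads also follow the most abundant genes of a complex. Sdha held 4055 of the 7243 control reads of complex II and had a ratio of 0.926, while its other genes had ratios from 0.708 to 0.842. Atp5b and Atp5a1 held 44.5% of the control reads of complex V, with ratios of 0.860 and 0.924.

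Complex I is the NADH:ubiquinone oxidoreductase, whose nuclear core subunits carry the flavin and the iron-sulfur clusters and whose many accessory subunits hold the enzyme together. The 28 accessory subunits had a median difference of -0.38, with 18 at least 0.32 lower and a ratio of read shares of 0.772 (0.760 to 0.784). Of the 7 nuclear core subunits 2 were at least 0.32 lower, and their summed ratio was 0.880 (0.857 to 0.904). Accessory subunits took 75.0% of the reads of both groups in control and 72.5% in OIR, an odds ratio of 0.877 (0.850 to 0.904).

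Among the core subunits, Ndufs1, the largest of them, was nearly level, at 48.0 FPKM in control and 47.3 in OIR. Ndufv1, which binds NADH and the flavin, stood at 122 and 116 FPKM, a difference of -0.07. The counting intervals of the ratios of both genes included 1, and both differences turned positive with TPM scaling. Ndufs3 had a difference of -0.12 and Ndufv2 of -0.21. Ndufs7 and Ndufs8, iron-sulfur subunits on the path to ubiquinone, had the lowest differences of the core. Ndufs7 stood at 113 FPKM in control and 88.3 in OIR (difference -0.35), and Ndufs8 at 53.2 and 38.8 (difference -0.45). Their ratios of read shares were 0.781 (0.721 to 0.847) and 0.729 (0.660 to 0.806).

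The accessory subunits were spread from Ndufa6, at 90.3 FPKM in control and 62.7 in OIR (difference -0.52), to Ndufb2, at 12.8 and 13.7 (difference 0.09). Ndufa13, also known as GRIM-19, followed Ndufa6 at 81.7 and 57.7 FPKM (difference -0.49). Ndufb2 was the only accessory subunit above 0. Its interval, 0.907 to 1.26, included 1, its difference turned negative with the authors' factors, and its span overlaps those of 3 other genes. The span of Ndufa13 overlaps 2 genes.

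Ndufa4 and Ndufa4l2 carry complex I names, but the Ndufa4 protein is now known as a subunit of complex IV. Ndufa4l2 is its paralog, a known target of the hypoxia-inducible factor HIF-1 that has been reported to lower complex I activity in low oxygen. Ndufa4 lies on mm10 chr6:11900292-11907497 (minus strand) and Ndufa4l2 on chr10:127514939-127517152 (plus strand). Their coding sequences, from GENCODE M21 on GRCm38, which is mm10, are shown because reads must be told apart between them. Capitals mark the longest run of bases that both share.

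Ndufa4: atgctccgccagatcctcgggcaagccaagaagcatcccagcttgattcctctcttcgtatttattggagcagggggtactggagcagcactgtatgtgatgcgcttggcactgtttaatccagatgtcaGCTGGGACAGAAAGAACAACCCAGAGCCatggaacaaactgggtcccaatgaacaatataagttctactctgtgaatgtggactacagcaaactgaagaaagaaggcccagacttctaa

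Ndufa4l2: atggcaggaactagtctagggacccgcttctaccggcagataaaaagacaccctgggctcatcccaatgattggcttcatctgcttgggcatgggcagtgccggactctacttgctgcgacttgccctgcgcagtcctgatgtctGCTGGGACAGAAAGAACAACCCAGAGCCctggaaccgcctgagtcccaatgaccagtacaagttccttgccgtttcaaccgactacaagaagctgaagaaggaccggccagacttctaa

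The coding sequences are 249 and 264 bases long and agree at 68.6% of 245 aligned bases. The shared run is 28 bases long, at positions 131 to 158 of Ndufa4 and 146 to 173 of Ndufa4l2, counted from the start codon. How the authors treated reads with more than 1 match is not known from the sources at hand.

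Ndufa4l2 was the member that stood apart. It had 92 reads and 6.09 FPKM in control and 1099 reads and 56.2 FPKM in OIR. Ndufa4 had 3400 reads and 341 FPKM in control and 3126 reads and 242 FPKM in OIR. The paralogs thus went opposite ways, with a difference of 3.01 for Ndufa4l2 and -0.49 for Ndufa4. The ratio of read shares was 9.23 (7.45 to 11.5) for Ndufa4l2 and 0.710 (0.676 to 0.746) for Ndufa4. Ndufa4l2 lay above 99.9% of tested genes, and its share of the summed FPKM of the pair went from 1.76% to 18.8%. In the authors' deposited table it was the only member marked as up, with a log2 fold change of 3.07. No member was marked as down. Over all genes of that table only 95 were marked up and 7 down, from 1 library against 1. The span of Ndufa4l2 shares 30 bases with Shmt2 on the other strand. Shmt2 had 553 reads in control and 1078 in OIR.

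**Figure D2:**
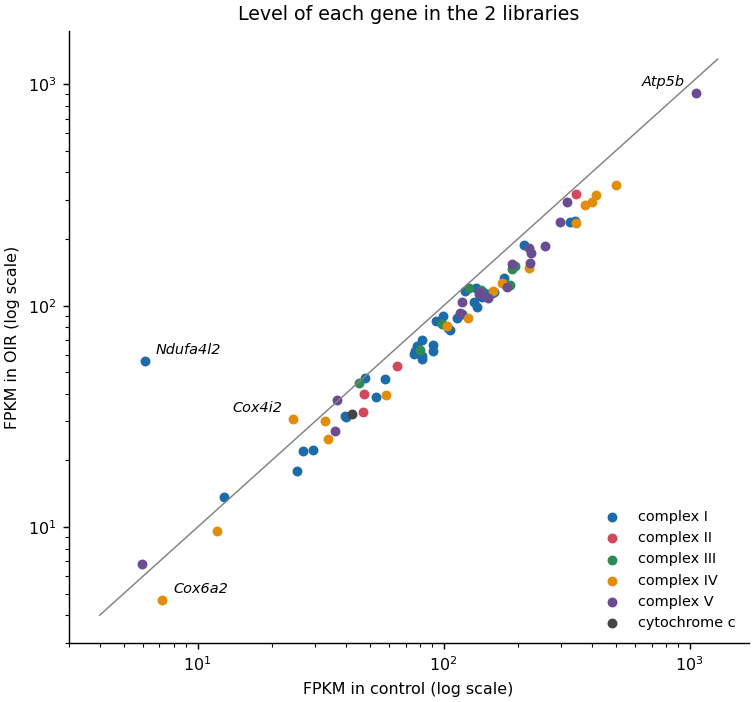
FPKM in OIR against FPKM in control for each tested member, both on log scales, coloured by complex, with the line of equal levels. Most points lie just under the line, from Cox6a2 at 7.19 and 4.69 FPKM to Atp5b at 1059 and 911, and Ndufa4l2 lies far above it.

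Complex II, succinate dehydrogenase, is also an enzyme of the TCA cycle and is encoded wholly in the nucleus. All 4 genes were lower in OIR, and 1 by at least 0.32. That gene was Sdhd, a membrane anchor, at 47.0 FPKM in control and 33.2 in OIR, a ratio of read shares of 0.708 (0.645 to 0.776). Sdhc, the other anchor, stood at 47.5 and 40.0 FPKM and had a ratio of 0.842 (0.774 to 0.916). In the catalytic head, the iron-sulfur subunit Sdhb stood at 64.7 and 53.3 FPKM. Sdha, the flavoprotein that oxidises succinate, stood highest of the complex at 345 and 319 FPKM. The Sdha ratio, 0.926 (0.888 to 0.965), was the nearest to 1 of the 4.

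Complex III, the cytochrome bc1 complex, has a nuclear catalytic pair, Cyc1 and the Rieske protein Uqcrfs1, a pair of large core proteins, and small subunits. All 9 genes were below 0, and 5 were at least 0.32 lower. The 5 small subunits had a median of -0.37, from -0.25 for Uqcrb to -0.58 for Uqcr10. Uqcr10 stood at 186 FPKM in control and 124 in OIR, and Uqcr11 at 178 and 125. Uqcrq, the highest of the complex by FPKM in control, stood at 195 and 151.

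The larger subunits of complex III differed among themselves. Cyc1, cytochrome c1, stood at 80.2 FPKM in control and 62.8 in OIR (difference -0.35), and the core protein Uqcrc2 at 142 and 118 (difference -0.26). Uqcrc1 stood at 127 and 120 FPKM (difference -0.08), and Uqcrfs1 at 45.4 and 44.8 (difference -0.02). The intervals of Uqcrc1 and Uqcrfs1 included 1, and both differences turned positive with TPM scaling. The small subunits took 54.8% of the reads of complex III in control and 50.8% in OIR, an odds ratio of 0.851 (0.812 to 0.893) against its other members. Taken from tested genes of like length, the small subunits had a median of -0.28. The catalytic pair had one of -0.23 and the large core proteins one of -0.16.

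Complex IV, cytochrome c oxidase, has a catalytic core made in the mitochondrion and nuclear subunits that surround it. The 10 common nuclear isoforms were all at least 0.32 lower in OIR, with a median of -0.45 and a summed ratio of 0.724 (0.711 to 0.736). Cox6b1, which faces the intermembrane space (chr7:30616974-30626151, minus strand), stood at 222 FPKM in control and 149 in OIR (difference -0.58). Cox5b, the zinc-binding subunit, stood at 346 and 236 (difference -0.55). Cox8a, the highest of complex IV by FPKM, stood at 501 and 350 (difference -0.51). Even the common isoform nearest to level, Cox4i1, was 374 in control and 286 in OIR, a difference of -0.39.

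Cycs encodes cytochrome c, the carrier between complexes III and IV. It stood at 42.6 FPKM in control and 32.5 in OIR, with 1251 and 1236 reads and a ratio of read shares of 0.763 (0.705 to 0.826).

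Complex V, the ATP synthase, joins the catalytic F1 head to a membrane rotor of c subunits through a stalk. Of its 17 members, 15 were below 0 and 7 at least 0.32 lower. Atp5b, the catalytic beta subunit (chr10:128083273-128090391, plus strand), had the highest level of all members, with 1059 FPKM in control and 911 in OIR and a ratio of 0.860 (0.841 to 0.880). Atp5a1, the alpha subunit, stood at 317 and 293 FPKM. Its ratio was 0.924 (0.896 to 0.953). These 2 genes took 44.5% of the reads of complex V in control and 47.5% in OIR, an odds ratio of 1.13 (1.1 to 1.16).

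The other parts of the ATP synthase varied. Atp5d, the delta subunit of F1, stood at 119 FPKM in control and 103 in OIR (difference -0.20), near to Atp5b. Atp5e, the epsilon subunit of F1, stood at 181 FPKM in control and 121 in OIR (difference -0.57). Atp5k, subunit e of the membrane part, stood at 224 and 156 (difference -0.52). Atp5o, the oligomycin sensitivity protein of the peripheral stalk, stood at 152 and 108 (difference -0.49), but the span the table gives for it overlaps 7 other genes. The 7 stalk and membrane genes had a median of -0.34, and the 5 F1 genes had a median of -0.22.

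Atp5s and Atp5sl match the rule by name but are not structural subunits of the ATP synthase. Atp5s stood at 5.95 FPKM in control and 6.84 in OIR, and Atp5sl at 36.9 and 37.4. Both intervals included 1, at 0.923 to 1.44 and 0.911 to 1.13, and the difference of Atp5sl turned negative with the authors' factors.

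The isoform families show which alternative forms left the common pattern. Cox4i2, the lung isoform of subunit 4 and a known target of HIF-1, lies on chr2:152754173-152765037 (plus strand). It had 281 reads and 24.5 FPKM in control and 459 reads and 30.9 FPKM in OIR. Cox4i2 was the only complex IV member above 0, with a difference of 0.32, just past the size of 0.32, and a ratio of read shares of 1.26 (1.09 to 1.47). Its share of the summed FPKM of Cox4i1 and Cox4i2 went from 6.13% to 9.73%, and its ratio to Cox4i1 was 1.65 times as high in OIR (1.41 to 1.93). In the authors' deposited table Cox4i2 had a log2 fold change of 0.20 and was not marked. With CPM, centring on all tested genes, TPM after leaving out lens, erythrocyte, ribosomal RNA and mitochondrial genome genes, or the authors' factors, Cox4i2 stayed above 0 but under the size of 0.32.

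Ndufa4l2 and Cox4i2 are known from pericytes and vascular smooth muscle. The marker list of these cells (10 of 10 tested) had 8 genes above 0 and 2 below, where 35.1% of all tested genes were below. Its median was 0.58, against 0.11 over all tested genes. Its summed read share was 0.0494% in control and 0.0636% in OIR, a ratio of 1.29 whose counting interval lay above 1. Rgs5, a pericyte marker, stood at 56.6 FPKM in control and 95.7 in OIR, while Acta2 stood at 85.3 and 69.1. No marker of the list was at 0 in either library. The part of these cells in the values of Ndufa4l2 and Cox4i2 was not tested.

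The muscle isoforms had levels well under those of their partners in both libraries. Cox6a2, the heart and skeletal muscle form of subunit 6a, had 77 reads and 7.19 FPKM in control and 65 reads and 4.69 FPKM in OIR. Cox7a1, the muscle form of subunit 7a, had 69 reads and 12 FPKM in control and 71 reads and 9.57 FPKM in OIR. Cox8b, the muscle and brown fat form of subunit 8, had 333 reads and 58.4 FPKM in control and 291 reads and 39.4 FPKM in OIR. Against the common forms Cox6a1, Cox7a2 and Cox8a, the OIR over control ratios were 0.861 (0.607 to 1.22), 1.13 (0.792 to 1.61) and 0.965 (0.817 to 1.14), so every interval included 1. At these read numbers, shifts of the first 2 isoforms within those bounds were not detectable.

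Skeletal muscle markers were mixed. The list (12 of 13 tested) had 10 genes above 0 and 2 below, where 35.1% of tested genes were below, and 4 reached 0.32 upwards. It had a summed read share of 0.0178% in control and 0.0252% in OIR, a ratio of 1.42 (1.35 to 1.48), while its summed FPKM was 185 and 197. Myh1, a fast myosin heavy chain, stood at 2.26 FPKM in control and 6.89 in OIR, but Mylpf, the highest of the list in control, stood at 58.3 and 42.7. No marker of the list was at 0 in either library, and the part of muscle in the values of these isoforms was not tested. Brown and white fat markers were near 0, with 2 of 8 tested and Ucp1 at 0 reads in control and 1 in OIR. Of the heart muscle list 3 of 7 were tested. Tnnt2 had 10 reads in control and 568 in OIR, Actc1 58 and 121, and Tnni3 16 and 29. Among those not tested, Myh6 had 2 and 24 reads, Myl7 2 and 7, Mybpc3 9 and 9, and Nppa 3 and 2.

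Of the testis forms, Cox6b2 was measured at 33.0 FPKM in control and 30.0 in OIR, with 246 and 290 reads. Its partner Cox6b1 was lower by more, so the share of Cox6b2 in the pair went from 12.9% to 16.8%, and its ratio to Cox6b1 was 1.36 times as high in OIR (1.13 to 1.64). The ratio of read shares of Cox6b2 itself, 0.911 (0.766 to 1.08), included 1. Cox7b2 and Cox8c, the other testis forms, were the members without reads, and their partners Cox7b and Cox8a had differences of -0.46 and -0.51.

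Cox7a2l, a relative of Cox7a2 that links complexes III and IV in supercomplexes, stood at 103 FPKM in control and 80.7 in OIR. Cox7a2 stood at 126 and 88.4 and Cox6a1 at 418 and 316. The 3 Atp5g genes encode the same mature c subunit behind different targeting sequences. Atp5g1 stood at 36.1 FPKM in control and 27.2 in OIR, Atp5g2 at 223 and 182, and Atp5g3 at 227 and 173. Ratios to Atp5g1 were 1.08 (0.988 to 1.19) for Atp5g2 and 1.01 (0.924 to 1.11) for Atp5g3, and both intervals included 1.

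**Figure D3:**
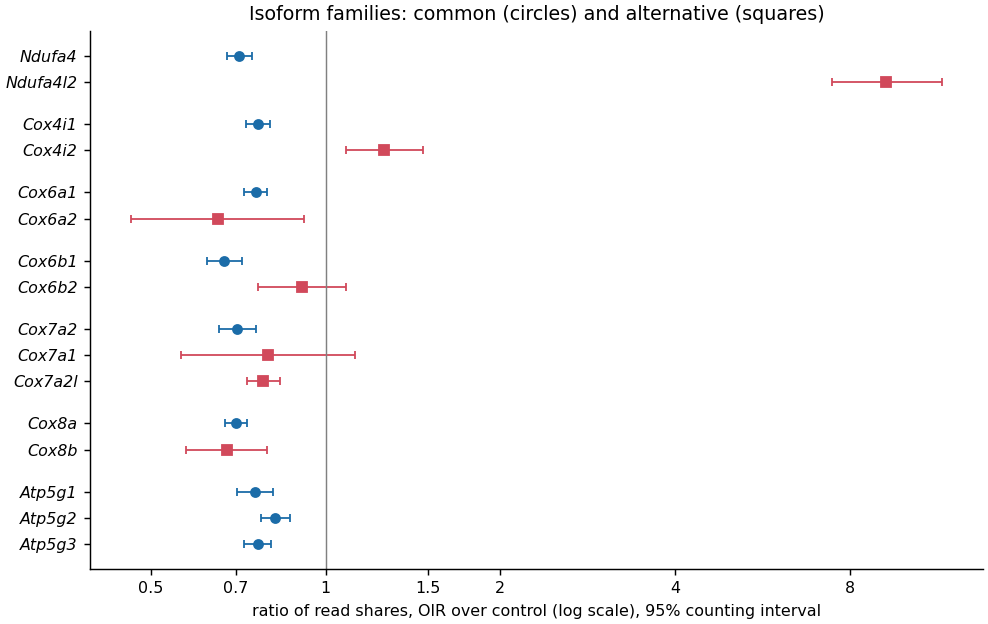
Ratio of read shares, OIR over control, on a log axis, with its 95% counting interval, for common isoforms (circles) and alternative isoforms (squares), grouped by family with the 3 Atp5g genes as circles. Ndufa4l2 at 9.23 and Cox4i2 at 1.26 lie above 1, and the intervals of Cox6b2 and Cox7a1 include 1.

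Family members shared short runs of bases. Across the other isoform families the longest run of bases shared by 2 transcripts was between 8 and 21 bases, the longest being that of Atp5g1 and Atp5g2. Cox4i1 and Cox4i2 agree at 69.2% of aligned coding bases, with a longest run of 14. Of all members, 32 have spans that overlap another gene and 54 do not. Over the 52 tested members without overlap the median was -0.39 and 34 were at least 0.32 lower.

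Most members have short transcripts by the length that read count and FPKM imply, and difference and that length moved together. This length was not checked against annotated transcripts, so an error in it would carry into the length results below. FPKM rests on the same length, so levels compared between genes would carry that error too. Across the 84 tested members Spearman's rho of difference and transcript length was 0.447, and without Ndufa4l2 and Cox4i2 it was 0.449 over 82. Within complexes it was 0.381 in complex I (36 members without Ndufa4l2), 0.547 in complex V (17) and 0.118 in complex IV (15 without Cox4i2). Over all 15883 tested genes it was 0.181. Spearman's rho of difference and control FPKM was -0.317 over the 84 members and -0.241 over all tested genes. The control value enters both of those measures. The median FPKM in control was 119 for the members and 9.33 for all tested genes, and the shares of all tested genes were not matched for level. These are descriptions over genes of the same 2 libraries.

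The 48 members under 800 bases had a median difference of -0.40, and 35 were at least 0.32 lower. The 36 longer members had a median of -0.28, and 13 were at least 0.32 lower. Among all tested genes, those of 443 to 709 bases, the range that holds 36 members, had a median of -0.09. Taken from the median of tested genes of like length (20 bins), the members had a median of -0.32, and 80 of 84 were below their bin, where 50.0% of tested genes were. By the same measure the medians were -0.29 in complex I, -0.33 in complex II, -0.27 in complex III, -0.40 in complex IV and -0.31 in complex V. Complex IV was again the lowest, but complex II, the nearest to level without regard to length, became the next lowest.

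**Figure D4:**
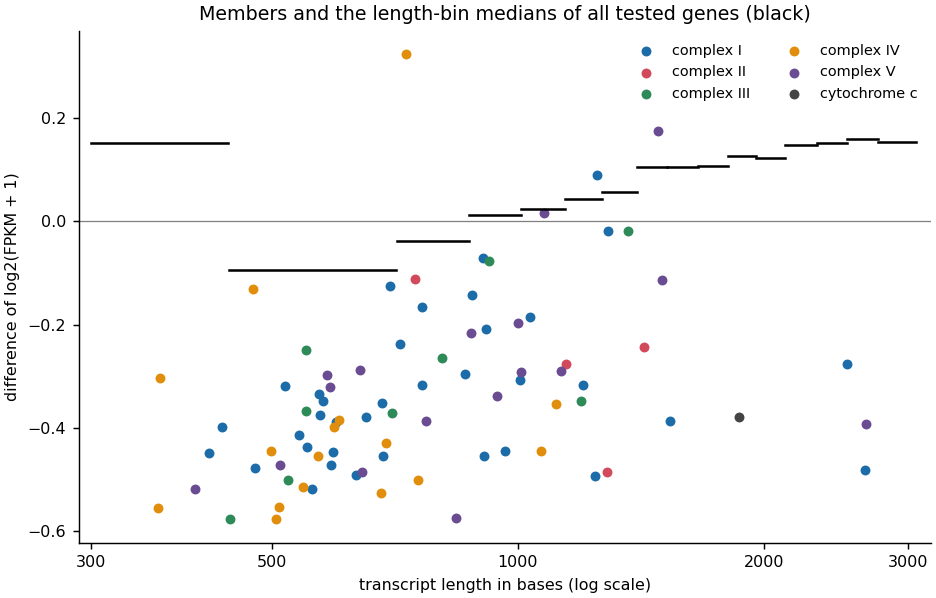
Difference of log2(FPKM + 1) against transcript length in bases (log axis) for the tested members except Ndufa4l2, coloured by complex, with the median of all tested genes in each length bin (black bars). Length is that implied by read count and FPKM. Of the 84 tested members 80 lie below the bar of their bin, and the shortest members tend to lie lowest.

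Nuclear chain genes are textbook targets of the factors NRF1, GABP (an ETS factor, also called NRF2) and YY1. Promoters of 300 bases, from 250 before to 50 after the start, were found for 67 of the 86 members among RefSeq sequences of GRCm38.p6. The NRF1 core GCATGCGC, searched on both strands, was in 11 of them (16.4%) and in 2.80% of all 27025 promoters of this length. The ETS letters CCGGAAG were in 15 (22.4%) against 9.12%, and the YY1 letters AAGATGGCG in 6 (8.96%) against 1.49%. The hypoxia response letters ACGTG or GCGTG were in 43 (64.2%) against 43.8%. Ndufa4l2, Cox4i1 and Cox4i2 are not among these 67 promoters. Member promoters had a median GC content of 57.3% and all promoters of 52.7%, and GC content was not matched.

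Median differences lay near each other with and without these letters, and the gaps were not tested. The 11 tested members with the NRF1 core had a median of -0.40 and the 55 without it of -0.39. For the ETS letters the medians were -0.45 with them (15 members) and -0.38 without. For the YY1 letters they were -0.37 with (6 members) and -0.39 without. For the hypoxia response letters they were -0.39 with (42 members) and -0.35 without. A match is a description of the letters and not of a bound site. The promoters of Cycs (chr6:50566520-50566819, minus strand), Cox6a1 (chr5:115348909-115349208, minus strand) and Uqcrc1 (chr9:108936398-108936697, plus strand) are shown as examples of a carrier, a lower complex IV gene and a nearly level complex III gene with the NRF1 core. Capitals mark the NRF1 core and the ETS letters on either strand, and where the core overlaps its own complement the capitals run together.

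Cycs: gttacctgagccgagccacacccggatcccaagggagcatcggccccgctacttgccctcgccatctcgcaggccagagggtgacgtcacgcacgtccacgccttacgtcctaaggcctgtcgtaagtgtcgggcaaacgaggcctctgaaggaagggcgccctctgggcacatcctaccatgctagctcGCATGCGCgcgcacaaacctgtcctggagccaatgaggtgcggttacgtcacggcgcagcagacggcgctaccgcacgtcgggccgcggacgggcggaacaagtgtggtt

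Cox6a1: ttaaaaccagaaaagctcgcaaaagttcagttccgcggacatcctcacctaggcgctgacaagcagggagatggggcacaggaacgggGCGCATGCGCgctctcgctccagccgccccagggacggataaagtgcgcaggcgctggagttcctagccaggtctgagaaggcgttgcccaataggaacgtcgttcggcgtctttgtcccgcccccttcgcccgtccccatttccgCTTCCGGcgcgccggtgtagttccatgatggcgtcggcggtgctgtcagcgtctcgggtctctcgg

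Uqcrc1: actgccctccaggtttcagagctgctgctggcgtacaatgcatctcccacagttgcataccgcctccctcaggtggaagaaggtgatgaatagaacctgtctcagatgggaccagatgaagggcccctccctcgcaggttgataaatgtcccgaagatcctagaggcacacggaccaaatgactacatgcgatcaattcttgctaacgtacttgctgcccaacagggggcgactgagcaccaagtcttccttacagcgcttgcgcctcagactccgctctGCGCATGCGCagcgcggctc

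All 3 promoters hold the NRF1 core, while the genes had differences of -0.38, -0.40 and -0.08. Only the Cox6a1 sequence of the 3 holds the ETS letters.

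Genes that serve the chain without being its subunits were set beside it. The subunit mRNAs of mitochondrial DNA were lower as well: of 13, mt-Nd4l had no reads, and the other 12 were all at least 0.32 lower, with a median of -0.51. The counting intervals of 10 lay below 1, and those of mt-Co2 and mt-Co3, with 30 to 57 reads a library, included 1. They took 1.98% of reads in control and 1.43% in OIR, a ratio of 0.723 (0.719 to 0.727). The lowest were mt-Nd3, at 157 FPKM in control and 90.7 in OIR, and mt-Atp8, at 36.4 and 20.9. Read numbers were very uneven: mt-Atp8 had 117 reads in control and 87 in OIR and mt-Atp6 195 and 157. In contrast mt-Co1 had 111696 and 111555. The cause of this unevenness was not tested. The nearest to level were mt-Nd6, with a difference of -0.32, and mt-Nd5, with -0.37.

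Assembly factors, the proteins that build the complexes, stood close to level. Of 44, Pet117 and Sco2 had no reads. The other 42 had a median of 0.02, against 0.11 over all tested genes, with 18 below 0 and 24 above. Of them 5 were at least 0.32 lower and 1 higher. Of all tested genes, 35.1% were below 0, 9.00% at least 0.32 lower and 24.3% at least 0.32 higher. The median of the list turned to -0.09 when taken from the median of all tested genes. Ndufaf3 stood at 27.9 FPKM in control and 19.1 in OIR and Coa6 at 17.3 and 11.7, the lowest differences of the list. The highest were Cox16, with 20 reads in control and 37 in OIR, and Ndufaf6, with 90 and 146, and both counting intervals included 1.

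The TCA cycle and pyruvate dehydrogenase genes, which supply the chain with NADH and succinate, had a median of -0.09. Of 16, 14 were below 0, where 35.1% of all tested genes were, and 1 at least 0.32 lower, where 9.00% were. The median was -0.18 when taken from genes of like length, with all 16 below their bin, and -0.20 when taken from the median of all tested genes. Idh3g, a subunit of isocitrate dehydrogenase, was that gene, at 94.9 FPKM in control and 75.3 in OIR, followed by Idh3a at 38.9 and 32.0. Ogdh (difference 0.04) and Dlst (difference 0.03), of the oxoglutarate dehydrogenase complex, were the only 2 above 0.

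Regulators of mitochondrial biogenesis had a median of 0.12, close to that of all tested genes. Of 12, 3 were below 0, where 35.1% of all tested genes were. None was at least 0.32 lower, where 9.00% were. Gabpb1 and Gabpa were at least 0.32 higher, a size that 24.3% of all tested genes reached. Taken from genes of like length, the list had a median of 0.02. Gabpb1 stood at 10.3 FPKM in control and 15.8 in OIR and Gabpa at 18.6 and 24.3, though the span of Gabpa overlaps Atp5j. The coactivator Ppargc1a stood at 11.2 and 11.1, and Ppargc1b had a difference of 0.18. Nrf1 had a difference of 0.30, Tfam, which coats mitochondrial DNA and helps start its transcription, 0.07, Esrra -0.14 and Tfb1m -0.07.

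A list of HIF and chain-switch genes held 10. Of these 8 were above 0 and 2 below, where 35.1% of all tested genes were below. At least 0.32 higher were 6, a size that 24.3% of all tested genes reached. Taken from genes of like length, 3 of the 6 stayed past that size, Bnip3 at 0.93, Higd1b at 0.67 and Pdk1 at 0.54. Higd1b, which is also on the pericyte list, had 28 reads in control and 60 in OIR, with an interval of 1.04 to 2.69. Bnip3, a mitophagy receptor, stood at 110 FPKM in control and 205 in OIR, and Pdk1, which closes pyruvate dehydrogenase, at 31.6 and 50.1. Higd1a, a small protein that acts on complex IV in low oxygen, stood at 41.6 and 53.4, a ratio of 1.29 (1.20 to 1.38). Lonp1, the protease linked to turnover of Cox4i1, had a difference of 0.22. Hif1a itself was level, at 135.8 and 135.5 FPKM, and Iscu, an iron-sulfur scaffold, had a difference of -0.29.

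Ribosomal protein genes were examined for comparison after the data had been seen. The 82 tested cytosolic ribosomal protein genes, with a median of 716 bases and 366 FPKM in control, had a median of -0.29, with 77 below 0 and 28 at least 0.32 lower, and a ratio of read shares of 0.829 (0.825 to 0.833). The 76 tested mitochondrial ribosomal protein genes, longer and less abundant at a median of 1097 bases and 20.4 FPKM, had a median of -0.16, with 61 below 0 and 13 at least 0.32 lower. Taken from genes of like length the medians were -0.26 and -0.20, against -0.32 for the chain members. Of all tested genes, 35.1% were below 0 and 9.00% at least 0.32 lower. Lower levels in OIR were thus also found in these groups, and the difference between the groups was not tested.

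**Figure D5:**
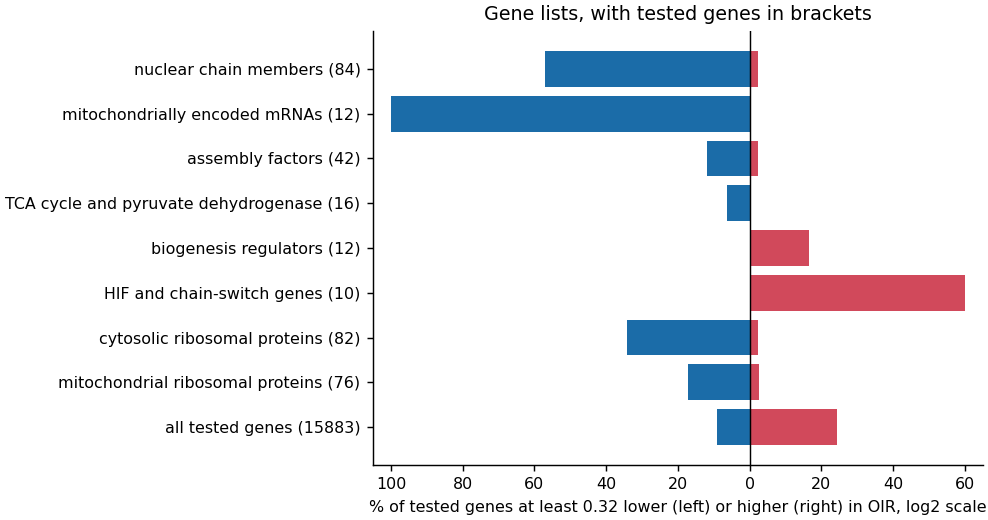
Percent of the tested genes of each list that were at least 0.32 lower (left bars) or higher (right bars) in OIR, with the number of tested genes in brackets. All 12 mitochondrially encoded mRNAs were lower, 48 of 84 nuclear members were lower and 2 higher, and among all tested genes 9.00% were lower and 24.3% higher.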

How the data were processed

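Total RNA of mouse eyeball was sequenced in 1 control and 1 OIR library, with kit NEBNext Ultra. The submitters' processing notes name HTSeq 0.6.1, TopHat2 2.0.12, Bowtie2 2.2.3 and mm10. Settings, annotation release and strand use are not given in these sources. Per the file headers, the deposited table holds a read count and an FPKM value per gene and library. It also holds the authors' scaled counts, a signal used here only to read their library factors (15.0 control, 21.4 OIR), and the authors' log2 fold change. The authors' p-values, from 1 library against 1, were not used, nor were 2 group columns that repeat the FPKM. After dropping 5 broken lines, 47644 genes remained.

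Differences are log2(FPKM + 1), OIR minus control, for genes with at least 1 FPKM in either library. A pseudocount of 1 understates the change of low genes. Sizes of 0.32 on the log2 scale and 2-fold were fixed rules. Intervals at 95% cover counting error only, since reads lacking molecular identifiers are not independent. They were tried on simulated Poisson counts for this comparison (47644 genes, 200 changed), where 189 of 200 held the true ratio. Poisson counts follow the model that the intervals assume, without duplicate reads or spread between animals. The simulation therefore checks the calculation only. Transcript length is that implied by count and FPKM. Repeated symbols would keep the highest FPKM. Members, lists, thresholds and the naming rule were chosen with earlier results of these data known. The rule names isoform family members, catalytic subunits, the 3 lowest, 3 highest and most abundant genes per complex, the 2 lowest and 2 highest per list, and set regulators. The values of 1 core subunit are not reported here. The ribosomal lists, ribosomal RNAs and printed promoters were chosen after the data were seen, and genes named outside the rule for other reasons were too. Marker lists covered rods, lens, skeletal and heart muscle, pericytes, fat, corneal epithelium and red cells. Alternatives changed the pseudocount, filter, scaling, centring, fold size and membership. Python 3.11.15, numpy 2.4.6, pandas 2.3.3, scipy 1.17.1 and matplotlib 3.10.9 were used.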

Additional observations from a re-analysis of the deposited data

How the results depend on the processing

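No paired analysis was possible because each group has 1 library, and no library could be left out for the same reason. Of 210 values under other settings, 166 moved by less than the counting interval or 1.5 times, 44 moved by more and none reversed a called value. With the authors' factors the median difference was -0.50 for all members, -0.49 for complex I, -0.40 for complex II, -0.49 for complex III, -0.58 for complex IV, -0.44 for complex V and -0.52 for cytochrome c. Centred on all tested genes, it was -0.46 for complex III, -0.56 for complex IV, -0.41 for complex V, -0.20 for the TCA cycle list, -0.62 for mitochondrially encoded mRNAs and 0.25 for the HIF list. Centred within length bins, it was -0.51 for cytochrome c and 0.17 for the HIF list. With TPM it was -0.20 for complex V, and 29 members were at least 0.32 lower. A pseudocount of 0.1 gave -0.56 for mitochondrially encoded mRNAs. At 1.5-fold, 0 members were lower and 1 higher. The count of members at least 0.32 higher was also 1 with centring on all tested genes, CPM, TPM without lens, erythrocyte, ribosomal RNA and mitochondrial genome genes, the authors' factors, or without members that overlap other genes, and 0 without the alternative isoforms. Leaving the reads of those 421 genes (26.3% of control and 20.1% of OIR reads) out of the totals gave ratios of 0.740 for all members, 0.747, 0.801, 0.745, 0.677 and 0.762 for complexes I to V, and 0.704 for cytochrome c. Signs changed for Ndufs1, Ndufv1, Uqcrc1 and Uqcrfs1 with TPM, for Atp5sl and Ndufb2 with the authors' factors or centring on all tested genes, and for Atp5sl within length bins or with TPM without those genes. The cause was not tested beyond the construction of each setting. Depth limits Cox6a2 and Cox7a1, with 65 to 77 reads a library.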

Other observations

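Ndufs1 and Uqcrfs1, on different chromosomes, had the same read numbers in both libraries, 974 in control and 1244 in OIR. Their FPKM differ through the transcript length that count and FPKM imply, 1290 and 1363 bases.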
